A study of Mus musculus with 8 samples.

Results

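Adamts1, Adamts4, Adamts5, Adamts9, Adamts15 and Adamts20 encode ADAMTS proteases of the proteoglycan-cleaving branch, and need not be all of it. They were taken from the gene count table by symbol, and all 6 were found among its 56748 genes. All 6 also passed the filter on low counts, which kept 13960 genes in all. The table comes from primary cardiac fibroblasts of 1-day-old wild-type C57BL/6J mice, grown in medium with serum. Of the 8 cultures, 4 received transforming growth factor beta 1 (TGF-β1), which drives fibroblasts toward a matrix-producing state, at 10 ng/mL for 48 h, and 4 were left untreated. The series design describes the replicates as isolates from different litters. The cells came from whole hearts by brief adhesion to plastic, so other cardiac cells can remain in the cultures.

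ADAMTS proteases are secreted zinc enzymes with a disintegrin-like module and thrombospondin type 1 repeats, through which they hold to the matrix. The proteoglycan-cleaving branch cuts versican and aggrecan, the large chondroitin sulfate proteoglycans that bind hyaluronan and swell the pericellular matrix. In the mouse heart, cleavage of versican by these enzymes takes part in the clearing of the embryonic cardiac jelly and the shaping of the valves. The enzymes are made as precursors, are trimmed by furin-type convertases, are blocked above all by TIMP3, and are taken up from the matrix by the receptor LRP1.

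Levels are given as normalised counts (CPM), that is counts scaled by the library total and its TMM factor (trimmed mean of M values). Fold changes are from the edgeR quasi-likelihood test. A gene was called where the p adjusted over all genes tested (Benjamini-Hochberg) lay under 0.05. Library totals ran from 14340740 to 17176898 counts. Untreated replicate 1 stood apart with 0.0322% of its counts on ribosomal RNA genes. The TGF-β1 libraries held 1.05% to 2.47%, and untreated replicates 2 to 4 held 2.05% to 2.40%. In bulk RNA, fewer cells that express a gene and less of its RNA per cell cannot be told apart.

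The 3 abundant members, Adamts1, Adamts5 and Adamts9, were lower in the TGF-β1 libraries. Of the 6 genes, 4 were called lower (Adamts15 being the other), 1 was called higher (Adamts4) and Adamts20 was not called. Among all genes tested, 18.5% were called lower, 17.6% higher and 36.0% in either direction. The median log2 fold change of the 6 was −0.32, against 0.0068 over all genes tested. The falls were modest, none reaching 1.5-fold. The calls of Adamts4 and Adamts15, which lay at a few CPM, depended on the settings, whereas those of Adamts1, Adamts5 and Adamts9 were kept under all 17 alternatives tried.

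**Figure D1:**
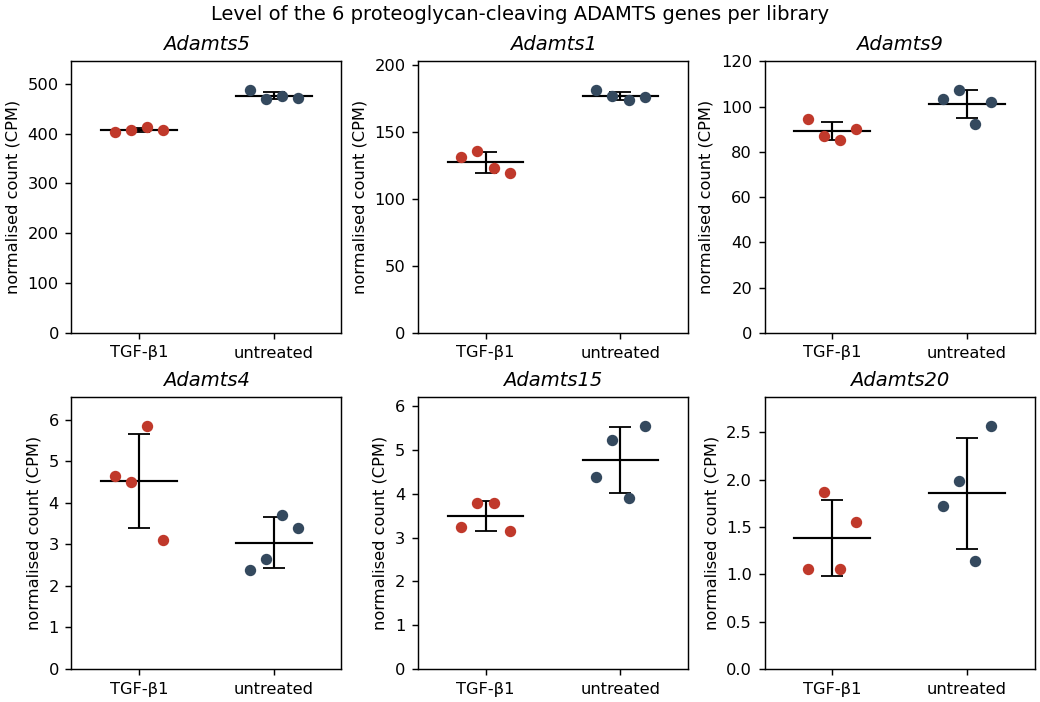
Normalised count (CPM, linear axes from 0) of each of the 6 genes, with 1 point per library, TGF-β1 left and untreated right. Horizontal lines are means and bars are SD over 4 libraries. Adamts1, Adamts5 and Adamts15 show no overlap between the groups, whereas Adamts4, Adamts9 and Adamts20 overlap.

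The promoters of Adamts1 and Adamts9 are shown because both genes were called lower and both have an entry in the RefSeq promoter table. That table also holds Adamts20 and so matched 3 of the 6. Each window is 300 bases, 250 before the annotated start and 50 after it, on the minus strand of GRCm38.p6, at chr16:85803064-85803363 for Adamts1 and chr6:92943485-92943784 for Adamts9.
Adamts1: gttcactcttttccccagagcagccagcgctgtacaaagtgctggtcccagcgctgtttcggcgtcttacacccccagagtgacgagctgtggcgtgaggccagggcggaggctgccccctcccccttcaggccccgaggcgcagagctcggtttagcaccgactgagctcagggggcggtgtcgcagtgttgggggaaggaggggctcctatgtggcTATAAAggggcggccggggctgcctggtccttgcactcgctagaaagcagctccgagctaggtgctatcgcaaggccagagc
Adamts9: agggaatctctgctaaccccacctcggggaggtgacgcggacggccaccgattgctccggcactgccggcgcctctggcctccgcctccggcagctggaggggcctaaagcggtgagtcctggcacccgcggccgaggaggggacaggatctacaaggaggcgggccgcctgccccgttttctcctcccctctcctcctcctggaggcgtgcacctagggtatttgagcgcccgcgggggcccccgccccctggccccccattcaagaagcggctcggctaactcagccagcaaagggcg
Both strands were searched for CAGAC, the short element that SMAD proteins bind, for TGANTCA, the element of AP-1, and for TATAAA, the TATA box. The motifs do not overlap one another here. Capitals mark the matches. The Adamts1 window held TATAAA, 32 bases before the start, and neither of the other motifs. TATAAA was present in 13.6% of the 32851 promoter windows in the table. The Adamts9 window held none of the 3. The Adamts20 window held 1 match to CAGAC, on the opposite strand, a motif found in 49.6% of all windows, and TGANTCA was found in 7.81%. These are matches of letters, not binding sites.

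Adamts1 encodes a protease of versican and aggrecan that is widely made by stromal cells (ENSMUSG00000022893, on the minus strand of chromosome 16 from 85590715 to 85600001 in GRCm39). It was at 132, 136, 123 and 119 CPM in the TGF-β1 libraries, against 181, 177, 174 and 176 CPM in the untreated ones. Every treated library lay below every untreated library. Adamts1 averaged 128 ± 7.76 CPM with TGF-β1 and 177 ± 3.08 CPM without (SD, n = 4 each), a log2 fold change of −0.47 ± 0.04 (± SE; adjusted p = 8.25e-09 by edgeR). Its level thus fell by 28.0%, the largest fall among the members above 10 CPM.

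Adamts5, or aggrecanase-2, is the main aggrecan-cleaving enzyme of mouse cartilage (ENSMUSG00000022894, chromosome 16, 85653061 to 85698716, minus strand). It had the highest FPKM of the members in both groups (FPKM, from the authors' table, is a count per kilobase of gene length and scaled library size). That scaled size was 0.971 to 0.994 of the library total with TGF-β1 and 1.03 to 1.07 without, so FPKM does not rest on library totals alone. The normalised count of Adamts5 was 403, 407, 414 and 406 CPM in the TGF-β1 libraries, against 487, 470.3, 475 and 472 CPM in the untreated ones, with no overlap. The log2 fold change was −0.22 ± 0.03 (± SE; adjusted p = 1.09e-05 by edgeR), so Adamts5 fell by 14.4%. The spread between replicates was small, with an SD of 4.53 CPM in treated and 7.51 CPM in untreated libraries (n = 4 each).

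Adamts1 and Adamts5 lie near each other on chromosome 16, in the same orientation and 53.1 kb apart, with 1 gene of the table, 4930556C24Rik, between them. Both fell, but not by the same amount. The ratio of Adamts1 to Adamts5 in FPKM was 0.665, 0.681, 0.605 and 0.597 in the TGF-β1 libraries. It was 0.758, 0.766, 0.746 and 0.760 in the untreated ones. On the log2 scale the ratio was −0.65 ± 0.10 with TGF-β1 and −0.40 ± 0.02 without (SD, n = 4 each), a difference of −0.25. An exact two-sided permutation test over the 70 assignments of libraries gave p = 0.0286, the smallest that 4 against 4 libraries allow. Adamts1 was lower relative to Adamts5 in every treated library than in any untreated one.

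Adamts9 encodes a long versican protease that the developing mouse heart needs in its valves and outflow tract (ENSMUSG00000030022, chromosome 6, 92749680 to 92920473, minus strand). Its normalised count was 94.7, 86.8, 85.3 and 89.9 CPM in the TGF-β1 libraries, against 103, 107, 92.4 and 102 CPM in the untreated ones. The groups overlapped by 1 untreated library, replicate 3, which lay below TGF-β1 replicate 1. Adamts9 fell by 11.9% (log2 fold change −0.18 ± 0.05, SE, edgeR adjusted p = 0.00509). Of its exonic bases in GENCODE M39, 12.2% lie under exons of genes on the opposite strand. No source used here says whether counting took strand into account, so part of its count is uncertain.

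Adamts4, or aggrecanase-1, was the only member with a positive fold change (ENSMUSG00000006403, chromosome 1, 171077990 to 171088206, plus strand). It had 66, 65, 83 and 52 reads in the TGF-β1 libraries, against 36, 40, 55 and 57 reads in the untreated ones. In normalised counts this was 4.66, 4.49, 5.84 and 3.10 CPM with TGF-β1 and 2.39, 2.65, 3.71 and 3.40 CPM without. The groups overlapped, since TGF-β1 replicate 4 lay below untreated replicates 3 and 4. The log2 fold change was 0.56 ± 0.20 (± SE; adjusted p = 0.036 by edgeR). The call was lost under 9 of the 17 alternatives, where the adjusted p reached 0.154, among them DESeq2, library totals and 5 of the 8 fits that left out a library. Without TGF-β1 replicates 1, 2 or 3 the log2 fold change of Adamts4 was 0.55, 0.56 or 0.42 (adjusted p = 0.0695, 0.060 or 0.154 by edgeR). Without untreated replicates 1 or 2 it was 0.46 or 0.50 (adjusted p = 0.107 or 0.0925).

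Adamts15 encodes a further versican protease (ENSMUSG00000033453, chromosome 9, 30810451 to 30833748, minus strand). It had 46, 55, 54 and 53 reads in the TGF-β1 libraries, against 66, 79, 58 and 93 reads in the untreated ones. The normalised count was 3.25, 3.80, 3.80 and 3.16 CPM with TGF-β1, and 4.38, 5.24, 3.91 and 5.55 CPM without. The groups did not overlap, but the highest treated and the lowest untreated library were close. Across all genes tested, 33.9% had groups that did not overlap, as had 3 of the 6 members (Adamts1, Adamts5 and Adamts15). The log2 fold change was −0.45 ± 0.17 (± SE; adjusted p = 0.0429 by edgeR), and this call too was lost under 9 of 17 alternatives, with the adjusted p reaching 0.147. Without TGF-β1 replicates 1 or 4 the log2 fold change of Adamts15 was −0.42 or −0.40 (adjusted p = 0.0891 or 0.101 by edgeR). Without untreated replicates 2 or 4 it was −0.40 or −0.37 (adjusted p = 0.110 or 0.147).

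Adamts20 is the gene of the belted coat pattern in mice, where it acts on versican in the skin (ENSMUSG00000022449, chromosome 15, 94168044 to 94363299, minus strand). It had the lowest level, with 15, 27, 15 and 26 reads in the TGF-β1 libraries and 26, 30, 17 and 43 reads in the untreated ones. That is 1.38 ± 0.40 CPM with TGF-β1 and 1.86 ± 0.59 CPM without (SD, n = 4 each), with overlapping groups. The log2 fold change of −0.43 ± 0.29 (± SE; adjusted p = 0.273 by edgeR) was not called under any alternative.

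Per gene length, the members kept the same order in both groups. In the TGF-β1 libraries, Adamts5 stood at 37.2 ± 0.39 FPKM, Adamts1 at 23.7 ± 1.47, Adamts9 at 5.83 ± 0.28, Adamts4 at 0.93 ± 0.23, Adamts15 at 0.33 ± 0.03 and Adamts20 at 0.15 ± 0.04 FPKM (SD, n = 4). In the untreated libraries, the same genes stood at 43.4 ± 0.67, 32.9 ± 0.60, 6.62 ± 0.42, 0.62 ± 0.13, 0.45 ± 0.07 and 0.20 ± 0.06 FPKM (SD, n = 4). With TGF-β1 no gene overlapped its neighbour in this order. In untreated libraries Adamts4 (0.489 to 0.756 FPKM) and Adamts15 (0.370 to 0.528 FPKM) overlapped, so these 2 were not separated beyond their spread.

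**Figure D2:**
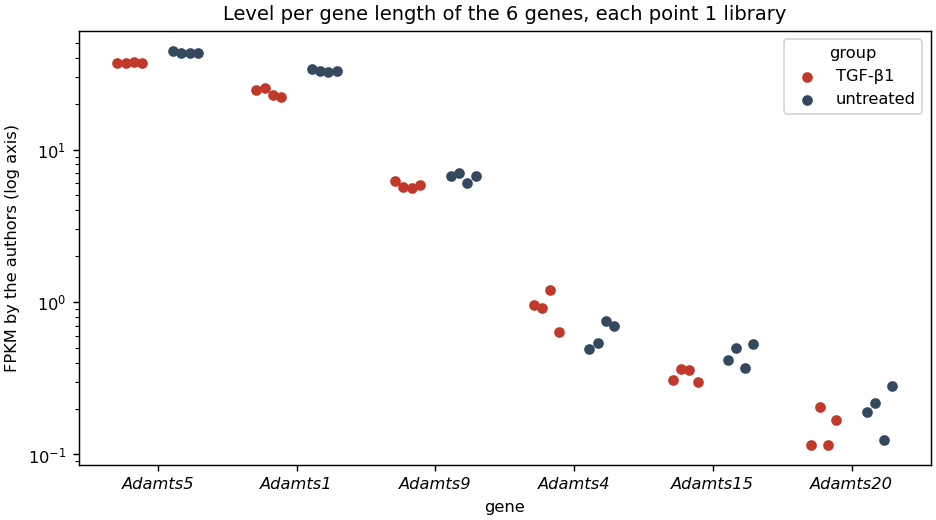
FPKM by the authors (log axis) of the 6 genes, with 1 point per library, TGF-β1 left of untreated for each gene. The levels span from 37.2 FPKM for Adamts5 to 0.15 FPKM for Adamts20 in TGF-β1 libraries, and from 43.4 to 0.20 FPKM in untreated ones.

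The summed FPKM of the 6 genes was 66.0 to 69.6 in the TGF-β1 libraries, against 82.6 to 85.9 in the untreated ones. Adamts5 made up 54.6% ± 1.40 of this sum with TGF-β1 and 51.6% ± 0.51 without (SD, n = 4 each). Adamts1 made up 34.8% ± 1.42 with TGF-β1 and 39.1% ± 0.11 without. Together with Adamts9, at 8.57% ± 0.44 with TGF-β1 and 7.86% ± 0.44 without, these genes accounted for nearly all of the pool. Adamts4 held 1.36% ± 0.33 with TGF-β1 and 0.739% ± 0.16 without. These shares describe the libraries and were not tested.

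Of the 13 other ADAMTS proteases, most of which are known for substrates other than the large proteoglycans, 10 passed the count filter. Of these 10, 5 were called higher and 3 lower, with a median log2 fold change of 0.26. Those called higher were Adamts12, Adamts8, Adamts6, Adamts16 and Adamts14, and those called lower were Adamts7, Adamts2 and Adamts3. Adamts10 and Adamts17 were not called, but without TGF-β1 replicate 3 Adamts17 was called lower, at −1.14 against −0.75 with all libraries (adjusted p = 0.0309 by edgeR). Adamts18 had no read in any library, and Adamts13 and Adamts19 had 1 and 21 reads over all 8.

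Adamts12, which like Adamts7 cleaves cartilage oligomeric matrix protein, had the smallest p of this list. Its normalised count was 666, 620.1, 637 and 635 CPM in the TGF-β1 libraries, against 331, 333, 337 and 329 CPM in the untreated ones. The log2 fold change was 0.94 ± 0.03 (± SE; adjusted p = 2.63e-15 by edgeR). Per gene length, Adamts12 was the most abundant of the 19 ADAMTS proteases with TGF-β1, at 57.6 FPKM, and the fourth without, at 30.0 FPKM. Adamts5 ranked second in both groups. With TGF-β1 it could not be separated from the procollagen N-propeptidase Adamts2, at 35.7 to 38.9 FPKM, and without TGF-β1 Adamts2 stood above it at 46.1 to 47.5 FPKM. Adamts7 went the other way to its close relative Adamts12, at 41.4 ± 1.94 CPM with TGF-β1 and 67.7 ± 3.32 CPM without (SD, n = 4 each), a log2 fold change of −0.71 ± 0.05.

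Adamts8, whose protein is reported to cleave aggrecan weakly, lies next to Adamts15 on chromosome 9. The pair is arranged head to head, with 20.1 kb and no annotated gene of the table between them. Adamts8 had 18.6, 17.4, 21.0 and 17.6 CPM in the TGF-β1 libraries, against 5.51, 7.16, 6.33 and 7.46 CPM in the untreated ones. It rose by 1.49 ± 0.11 on the log2 scale (± SE; adjusted p = 2.14e-10 by edgeR), while the fold change of its neighbour Adamts15 was negative. Of the exonic bases of Adamts8, 11.6% lie under an opposite-strand gene. Adamts6, which acts on fibrillin microfibrils, rose by 1.34 ± 0.10. Adamts16 had 116 reads over the treated libraries and 7 over the untreated ones, of which 2 had none.

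ADAMTS-like genes encode relatives without the protease domain. Of 7 genes, 6 were called lower and 1 higher, with a median log2 fold change of −1.04. Thsd4, which promotes fibrillin microfibril assembly, had 4.51, 3.80, 4.93 and 2.98 CPM in the TGF-β1 libraries, against 22.1, 23.3, 21.2 and 24.7 CPM in the untreated ones. Its log2 fold change was −2.50 ± 0.12 (± SE; adjusted p = 1.97e-13 by edgeR). Adamtsl4 and Adamtsl3 were called lower, at −1.08 ± 0.16 and −0.63 ± 0.06. Adamtsl2, a fibrillin-binding protein gene, was the one called higher, at 926 ± 29.5 CPM with TGF-β1 and 700.0 ± 14.6 CPM without (SD, n = 4 each).

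**Figure D3:**
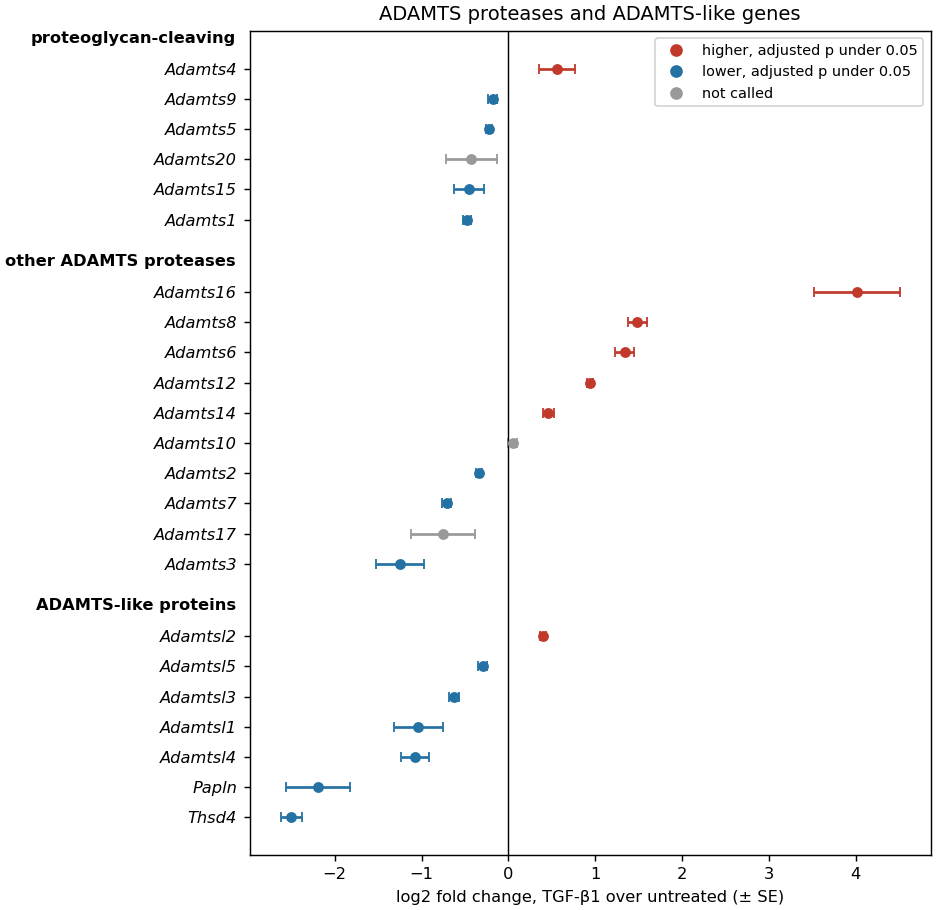
Log2 fold change of TGF-β1 over untreated (± SE) for the 6 proteoglycan-cleaving genes, the 10 other ADAMTS proteases tested and the 7 ADAMTS-like genes. Red marks genes called higher, blue genes called lower and grey genes not called. Thsd4 lies furthest left, at −2.50, and Adamts16, with 7 reads in all untreated libraries, furthest right.

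The versican and aggrecan genes were called higher, as were a hyaluronan receptor and a hyaluronan synthase gene. Of 12 hyalectans, link proteins and hyaluronan partners, 7 were tested, 4 were called higher and none lower, with a median log2 fold change of 0.68. Under every one of the 17 alternatives 4 were called higher and none lower. Vcan, the versican gene, had 354, 306, 339 and 334 CPM in the TGF-β1 libraries, against 158, 149, 166 and 145 CPM in the untreated ones, with no overlap. Acan, the aggrecan gene, was scarce at 5.09 ± 0.63 CPM with TGF-β1 and 0.964 ± 0.31 CPM without (SD, n = 4 each), without overlap. The others called were the hyaluronan receptor gene Cd44 (0.83 ± 0.04) and the hyaluronan synthase gene Has2 (0.68 ± 0.12). In FPKM, Vcan stood at 22.7 ± 1.36 with TGF-β1 and 10.5 ± 0.61 without (SD, n = 4 each). With TGF-β1 its 20.8 to 24.1 FPKM overlapped the 22.1 to 25.3 FPKM of Adamts1, whereas in untreated libraries Adamts1 stood above it at 32.2 to 33.7 FPKM.

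Of 7 further genes whose products ADAMTS enzymes are known to cut or to bind, 2 were called higher and 4 lower. Fmod, a small collagen-binding proteoglycan, had a log2 fold change of −1.68 ± 0.06. Sdc4, a cell-surface heparan sulfate proteoglycan reported to aid ADAMTS5 activity, and Nid2, a basement membrane linker cut by ADAMTS1, were at −0.96 ± 0.04 and −0.93 ± 0.04. Thbs1, a matrix glycoprotein that ADAMTS1 also cuts, was at 0.65 ± 0.03. Opposite-strand exons cover 11.8% of the exonic bases of Nid2 and 11.1% of those of Thbs1. The second gene called higher, Bgn, was not called with library totals (edgeR adjusted p = 0.199) or with limma, where the adjusted p was 0.0652 on log2(FPKM + 1) and 0.0633 with a pseudocount of 0.1.

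Inhibitors and processing factors were split, with 5 of 12 tested called higher, 5 lower and a median log2 fold change of −0.00088. Timp3, the principal inhibitor of ADAMTS4 and ADAMTS5, had 1057, 1017, 1053 and 1038 CPM in the TGF-β1 libraries, against 847, 845, 827 and 823 CPM in the untreated ones. Its log2 fold change was 0.32 ± 0.03 (± SE; adjusted p = 4.71e-08 by edgeR). Of its exonic bases, 21.3% lie under the opposite-strand gene Syn3. Lrp1, the receptor that clears these enzymes and TIMP3, was higher by 0.42 ± 0.04, and Timp1 by 0.60 ± 0.05. Fbln1, a matrix cofactor of ADAMTS1, was at 25.5 ± 4.30 CPM with TGF-β1 and 76.1 ± 6.72 CPM without (SD, n = 4 each), a log2 fold change of −1.57 ± 0.09. Timp2 (−0.52 ± 0.03), the convertase gene Pcsk5 (−0.87 ± 0.06) and Mmp17, whose product can activate ADAMTS4 (−1.23 ± 0.11), were called lower. The fifth gene called lower, Pcsk7, lost its call without TGF-β1 replicate 1 (adjusted p = 0.0514 by edgeR) and without untreated replicates 1 or 2 (adjusted p = 0.0866 or 0.0647). Opposite-strand exons of Rnf214 and Tagln cover 11.0% of the exonic bases of Pcsk7. The convertase gene Pcsk6 was called higher, at 264 ± 6.10 CPM with TGF-β1 and 205 ± 10.3 CPM without (SD, n = 4 each). Its log2 fold change was 0.37 ± 0.04 (± SE; adjusted p = 1.62e-07 by edgeR). Furin, the convertase that removes the prodomain, was not called, at 127 ± 9.83 CPM with TGF-β1 and 124 ± 4.63 CPM without.

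**Figure D4:**
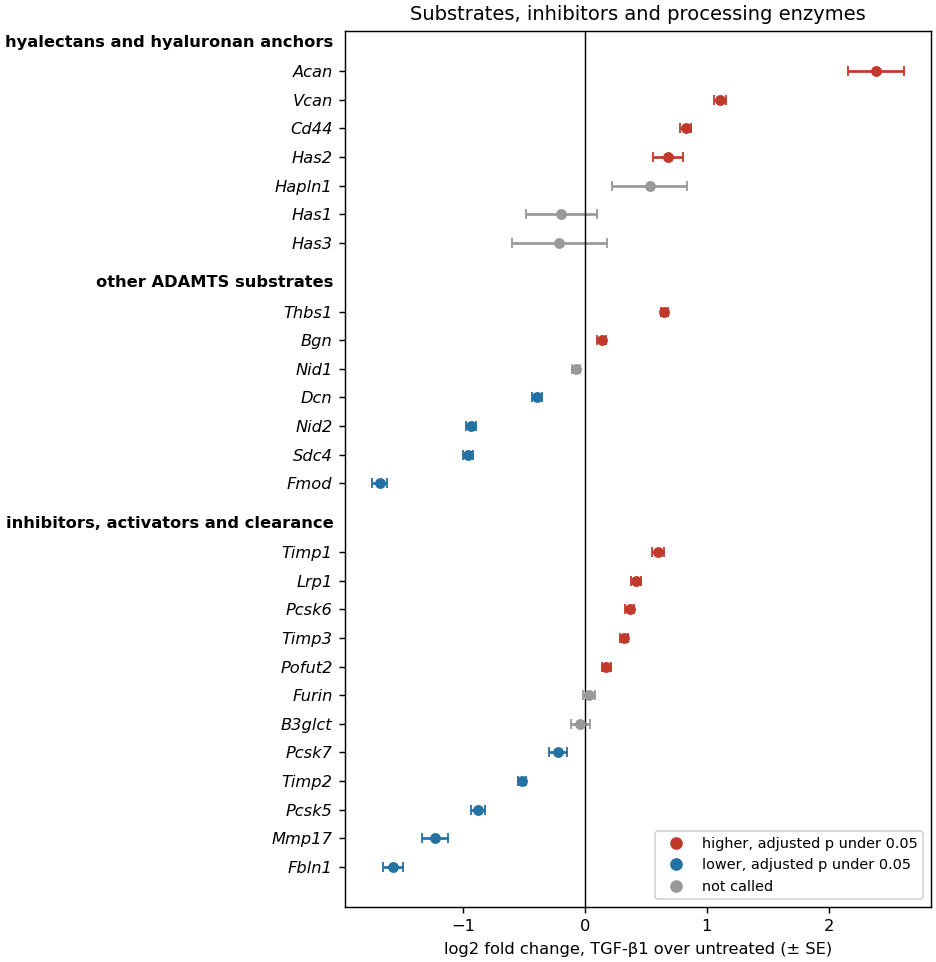
Log2 fold change of TGF-β1 over untreated (± SE) for the tested substrates, inhibitors, activators and clearance receptors. Colours are as in the plot of ADAMTS fold changes. Acan, Vcan, Cd44 and Has2 lie to the right, and Fmod and Fbln1 furthest left, at −1.68 and −1.57.

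Markers of the labelled cell type were abundant, with the summed fibroblast markers at 19945 to 21612 CPM with TGF-β1 and 15619 to 17168 CPM without. Of the 8 genes, 2 were called higher (Col1a1 and Col1a2) and 5 lower (Thy1, Pdgfra, Tcf21, Dcn and Ddr2), Dcn being also on the list of further substrates. Markers of other cells were also present. All 8 cardiomyocyte markers were called lower, at a summed 397 to 474 CPM with TGF-β1 and 726 to 792 CPM without. Epicardial and mesothelial markers summed to 747 to 775 CPM with TGF-β1 and 886 to 937 CPM without, with 1 of 6 called higher and 2 lower. Mural markers summed to 117 to 132 CPM with TGF-β1 and 81.7 to 86.5 CPM without, with 3 of 5 tested called higher and 1 lower, while Kcnj8 and Abcc9 did not pass the filter. Endothelial markers (71.3 to 77.4 CPM with TGF-β1, 73.3 to 75.8 CPM without; 2 of 6 higher, 1 lower) and macrophage markers (164 to 198 CPM with TGF-β1, 179.7 to 219 CPM without; 1 of 7 higher, 1 lower) overlapped between the groups. The endothelial gene Cdh5 was not called without untreated replicate 1 (0.25, adjusted p = 0.0583 by edgeR). With library totals Cdh5 was not called either (0.22, edgeR adjusted p = 0.0715). Tek, the endothelial gene called lower, lost its call without TGF-β1 replicate 3 or untreated replicate 4 (edgeR adjusted p = 0.0898 or 0.0553). Of the macrophage genes, Lyz2, called lower, lost its call without untreated replicate 4 (edgeR adjusted p = 0.0579). Adgre1, called higher, lost its call without TGF-β1 replicates 3 or 4 or untreated replicates 2 or 4. The part of these cells in the changes of Adamts1, Adamts5 and Adamts9 was not tested.

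**Figure D5:**
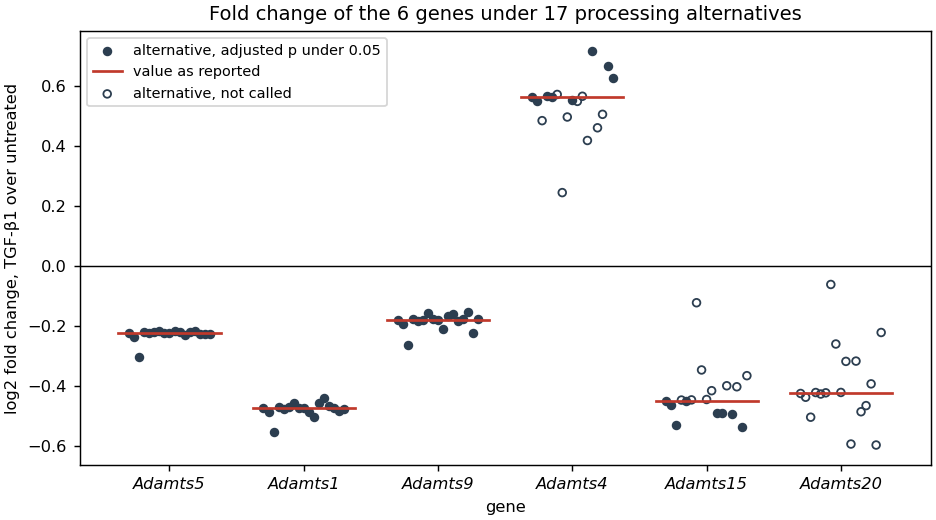
Log2 fold change of TGF-β1 over untreated for each of the 6 genes under 17 processing alternatives, filled where the adjusted p was under 0.05 and open where it was not. Red lines are the values as reported. Adamts5, Adamts1 and Adamts9 are filled throughout, Adamts4 and Adamts15 are open in 9 of 17, and Adamts20 is open in all 17.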

How the data were processed

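Polyadenylated RNA of 8 cultures was sequenced, and the authors deposited read counts per gene (whole numbers, not normalized) and FPKM values for the same genes and libraries. HISAT2, featureCounts, Subread and CASAVA are named without versions, per the submitters' processing notes. The notes name GRCm38 and the series design mm39. Coordinates in the deposited count table overlap the same coding gene for 99.9% in GRCm39 (GENCODE M39) and 16.1% in GRCm38.p6 (RefSeq), so they are read as GRCm39.

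Genes were kept with filterByExpr (minimum count 10, minimum total 15), scaled with TMM factors and tested with edgeR 4.0.16 (limma 3.58.1, R 4.3.3) by the quasi-likelihood test, two-sided, with group as the only term. The SE is the size of the log2 fold change over the square root of F. The procedure was also run on simulated counts as a check of the code, and no result here rests on that run. DESeq2 1.42.0 and limma on log2 FPKM served as alternatives. The members and gene lists were chosen with earlier results of these data known. The naming rule gives the members and up to 4 called genes of each list with the smallest p, and the 3 genes of most similar profile for each called member. Other companion genes in the text, among them Adamts2, Adamts16, Bgn, Timp3, Lrp1, Mmp17, Pcsk6 and Furin, were named after their values were seen.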

Additional observations from a re-analysis of the deposited data

Results flagged for a closer look

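One value stood far from the rest of its group. Tcf21, a fibroblast lineage factor among the fibroblast markers, had 572 CPM in untreated replicate 3, against 528 to 531 CPM in the other untreated libraries. Over the 94 groups of 4 values examined, chance flags about 5% in this way. No value of the 6 proteases and no ratio of Adamts1 to Adamts5 stood out by this measure.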

How the results depend on the processing

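Adamts1 (log2 fold change −0.56 to −0.44), Adamts5 (−0.31 to −0.22) and Adamts9 (−0.26 to −0.15) were called lower under all 17 alternatives, and the fold changes of the 6 genes changed sign under none. With library totals, 1301 genes were called higher and 3673 lower, in place of 2451 and 2579, the median log2 fold change over all genes moved to −0.074, no member was called higher (Adamts4 0.48, adjusted p = 0.0687) and 1 of the other substrates was. With DESeq2, no member was higher (Adamts4 0.57, adjusted p = 0.0626, and Adamts15 −0.45, adjusted p = 0.104). With limma on log2(FPKM + 1), Adamts4 was at 0.24 (adjusted p = 0.0652), Adamts15 at −0.12 (adjusted p = 0.0835), 0 members were higher and 1 of the other substrates was. On log2(FPKM + 0.1), the values were 0.50 (adjusted p = 0.0713) for Adamts4 and −0.35 (adjusted p = 0.0898) for Adamts15, with 0 members and 1 other substrate higher. With no count filter, Adamts15 was at −0.45 (adjusted p = 0.0749). With the replicate number as a block, Adamts15 was at −0.45 (edgeR adjusted p = 0.0609), and 2416 genes were called higher and 2555 lower. The log2 ratio of Adamts1 to Adamts5 then differed by −0.25 (exact sign-flip p = 0.125). That p is the smallest that 4 pairs allow, so this test could not reach 0.05. Same-numbered libraries did not deviate together (r from −0.033 to 0.030), but such values cannot show whether they came from the same litter. Leaving out 1 library at a time gave 0.42 to 0.72 for Adamts4, −0.54 to −0.37 for Adamts15, 0 to 1 members higher and 3 to 4 lower. The Adamts4 call was lost without TGF-β1 replicates 1, 2 or 3 or untreated replicates 1 or 2, and the Adamts15 call without TGF-β1 replicates 1 or 4 or untreated replicates 2 or 4. Of 35 called genes in the companion lists, 4 (Adamtsl1, Bgn, Pcsk7 and Pofut2) lost their call in some alternative. Of the uncalled ones, Nid1 was called lower with library totals (−0.15, adjusted p = 0.000912), with upper-quartile factors (−0.086, adjusted p = 0.0477) and without TGF-β1 replicate 1 (−0.091, adjusted p = 0.0479), and Adamts17 without TGF-β1 replicate 3 (−1.14, adjusted p = 0.0309). Uncalled genes that changed sign were Adamts10 (−0.028) and Furin (−0.045) with library totals, Furin without TGF-β1 replicate 1 (−0.0061; range −0.0061 to 0.080 leaving out each library), B3glct without TGF-β1 replicate 3 (0.0051) or untreated replicate 2 (0.044; range −0.096 to 0.044), and Has3 (0.15) without untreated replicate 3. The causes were not tested. Adamts4, Adamts15 and Adamts20 had at most 93 reads per library, and the part of depth and of replicate spread in their calls was not separated.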

Other observations

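For the 3 abundant members, the genes with the most similar profile over the 8 libraries were picked among 10205 others with a mean of at least 5 CPM. Likeness was the root mean square difference of log2 CPM, each profile centred on its own mean. Adamts1 was closest to Csrp1, a LIM-domain protein gene (difference 0.039), Ccnd3, a D cyclin gene (0.041), and Parp1, a DNA damage sensor gene (0.043). Adamts5 was closest to Cul7, a ubiquitin ligase scaffold gene (0.021), Ugdh, which makes the UDP-glucuronate used for hyaluronan and other glycosaminoglycans (0.022), and Nr3c1, the glucocorticoid receptor gene (0.023). Cul7, Ugdh and Nr3c1 had log2 fold changes of −0.21 ± 0.04, −0.26 ± 0.04 and −0.20 ± 0.04 (± SE). Since they were picked for likeness to Adamts5, these values are not separate evidence. Adamts9 was closest to Zfp219, Nup107 and Cnot3 (0.028 to 0.032), but these calls were unstable. All 3 were lost with DESeq2 and without TGF-β1 replicate 2 or untreated replicate 2. Zfp219 and Cnot3 were also lost without TGF-β1 replicate 3 or untreated replicate 1, Nup107 and Cnot3 without untreated replicate 4, and Cnot3 with limma at both pseudocounts. For the scarce members the nearest profiles were looser, with Syngr1 at 0.18 from Adamts4 and Ripor3 at 0.084 from Adamts15.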
